A study of Mus musculus with 40 samples.

Results

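The genes described here are 9 circadian clock and clock-output genes of the liver: Dbp, Tef, Hlf, Nr1d1, Nr1d2, Per1, Per2, Per3 and Bhlhe41. Every probe set of the array that the platform annotation gives to 1 of these symbols alone was taken, which made 22 probe sets of 45037, and 9 genes of the 18193 that have a probe set of their own. Of these probe sets, 13 from 7 genes reached the expression minimum, log2 4 or more on at least 3 mice of any group. RNA was measured on Affymetrix arrays in the liver of 40 male C57BL/6J mice of 12 weeks, which gave 10 groups of 4 by genotype (Wt or Nrf2-null) and treatment. Nrf2-null mice lack the transcription factor Nrf2, encoded by Nfe2l2, in all tissues, and were bred from inbred heterozygous mice. Mice received, by gavage on alternate days (3 treatments in 5 days), vehicle (10% Cremophor-EL and 10% DMSO in PBS), 300 μmol/kg of D3T (3H-1,2-dithiole-3-thione) or 3, 10 or 30 μmol/kg of CDDO-Im, a synthetic oleanane triterpenoid. Both agents activate Nrf2 by reacting with its inhibitor Keap1. Tissue was collected 24 hours later, and all mice ate the AIN-76A diet. The clock hour of collection is not given in the sources used here.

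In the liver clock, the activator pair of CLOCK (or NPAS2) and BMAL1, which is encoded by Arntl, binds E-boxes and turns on a set of genes that peak together in the later part of the light phase and the evening. The PER proteins among these inhibit that same activator, the REV-ERB receptors encoded by Nr1d1 and Nr1d2 repress Arntl, Npas2, Clock, Cry1 and Nfil3 through ROR elements, and Bhlhe41 (DEC2) competes at E-boxes. Dbp, Tef and Hlf are the proline and acidic amino acid-rich (PAR) bZIP factors, which pass the rhythm on through D-boxes to genes of drug and lipid metabolism, while Nfil3 represses at the same D-boxes in the opposite phase.

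Start-site sequences of 8 of the 9 genes were matched in RefSeq (GRCm38.p6), 10 in all. The 250 bases before each start were searched on both strands for the E-box CACGTG, the D-box TTATGTAA or TTACGTAA and the antioxidant response element core TGACNNNGC, the motif that Nrf2 is known to bind. The 3 sequences below are shown because they hold the D-boxes, the antioxidant response element cores and an E-box of a PAR bZIP gene; capitals mark the matches, and each runs 5′ to 3′ on the strand of the gene. They are Per3 at chr4:151044666-151044915 (minus strand), the first of the listed starts of Per1 at chr11:69098699-69098948 (plus strand) and the first of those of Tef at chr15:81802423-81802672 (plus strand).
Per3: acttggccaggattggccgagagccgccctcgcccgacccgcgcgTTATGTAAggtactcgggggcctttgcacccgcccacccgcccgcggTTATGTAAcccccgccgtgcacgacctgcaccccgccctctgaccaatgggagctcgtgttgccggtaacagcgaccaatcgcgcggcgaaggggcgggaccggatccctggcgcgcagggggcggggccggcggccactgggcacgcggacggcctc
Per1: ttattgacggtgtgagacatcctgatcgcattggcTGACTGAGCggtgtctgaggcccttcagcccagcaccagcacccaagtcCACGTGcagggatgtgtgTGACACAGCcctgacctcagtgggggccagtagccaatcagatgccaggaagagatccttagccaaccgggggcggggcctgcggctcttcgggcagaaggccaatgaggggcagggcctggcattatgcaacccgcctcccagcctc
Tef: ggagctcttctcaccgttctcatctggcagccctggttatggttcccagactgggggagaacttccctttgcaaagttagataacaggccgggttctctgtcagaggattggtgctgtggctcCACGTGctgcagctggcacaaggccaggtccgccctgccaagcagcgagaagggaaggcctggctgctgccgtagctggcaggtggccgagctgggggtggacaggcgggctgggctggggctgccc
Per3 held 2 D-boxes, whose first letters lie 205 and 158 bases before the start. Per1 held an E-box at 166 bases and antioxidant response element cores at 215 and 148 bases, and Tef an E-box at 127 bases. The other start of Tef (E-box at 138 bases) and Bhlhe41 (E-box at 153 bases) also had a match, whereas the sequences of Dbp, Hlf, Nr1d1, Nr1d2 and the other start of Per1 held none of these letters. An E-box was found in 4 of the 10 sequences and in 6.02% of 32851 start-site sequences of the same length, a D-box in 1 of 10 and in 0.931%, and the antioxidant response element core in 1 of 10 and in 10.2%. A match is a description of the letters and not of a bound site.

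The arrays had medians of 7.50 to 7.86 over 18935 kept probe sets, no 2 arrays were identical, and Nfe2l2 separated the genotypes on 1 probe set, with 10.77 to 11.75 in Wt and 2.72 to 3.10 in Nrf2-null mice (p = 0.0286 by a two-sided exact permutation test over the 8 vehicle mice, which is the lowest value possible with 4 against 4). The second Nfe2l2 probe set overlapped between the genotypes (exact p = 0.114). All 5 hepatocyte markers were expressed, and their summed level was 17.96 to 18.29 in log2 over all mice. Some Nrf2-null mice stood apart from the other mice of their group in the genes described here. These were vehicle replicate 1, D3T replicate 4, and the CDDO-Im 10 μmol/kg mice, of which replicates 1 and 3 were high and replicates 2 and 4 low. All were kept, and the Nrf2-null results and genotype differences that vehicle replicate 1 moves most are also given without it. Vehicle replicate 1 was picked by its values in these same genes, so results without it show only how far they depend on it. D3T replicate 4 also had the lowest summed Kupffer cell markers of its group, 10.99 against 12.77 to 13.32 in the other 3 mice, and the lowest summed endothelial markers, 10.59 against 12.03 to 12.32, while its hepatocyte markers were at 18.19 against 18.18 to 18.23. Their part in the Nrf2-null D3T results was not tested.

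Detection differed among the 9 genes. Of the kept probe sets, 7 from 6 genes (Dbp, Tef, Hlf, Nr1d2, Per1 and Per2) were expressed in all 10 groups. Another 6 probe sets of Dbp, Tef, Per2 and Per3 were expressed in 1 to 5 groups, 3 of them only in the Wt mice given 10 μmol/kg of CDDO-Im. These had to be high somewhere in order to be kept, so counts are given for the 7 probe sets first. Where every mouse of a group lay under the minimum, a change against that group is given as a bound, with its mice set to log2 4. The remaining 9 probe sets did not reach the minimum. Both probe sets of Bhlhe41 stayed between 2.15 and 2.19 on all arrays. The probe set of Nr1d1, a repressor of Arntl, exceeded log2 4 in 1 mouse, Nrf2-null vehicle replicate 1, at 4.34. These 2 genes were therefore below the expression minimum in every group.

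Dbp, the PAR bZIP factor of widest daily swing in liver, was highest at 10 μmol/kg of CDDO-Im and next highest with D3T. In Wt liver its log2 intensity was 5.08, 5.18, 4.56 and 4.83 with vehicle, 8.15, 9.81, 9.69 and 8.15 with D3T, and 11.60, 11.87, 10.94 and 12.55 at 10 μmol/kg. At 3 μmol/kg it was 5.24, 4.55, 4.52 and 4.54, and at 30 μmol/kg 4.57, 5.07, 4.56 and 4.91. The mice at 10 μmol/kg, the D3T mice and the other 3 Wt groups thus formed 3 ranges that did not overlap, while the vehicle, 3 μmol/kg and 30 μmol/kg mice overlapped with each other. Dbp was 114-fold higher at 10 μmol/kg than with vehicle (log2 change 6.83, SE 1.23, limma adjusted p = 0.000338). With D3T it was 16.5-fold higher, which did not pass the test (log2 change 4.04, 95% interval 1.54 to 6.55, adjusted p = 0.0635). The SE is that of the shared fit, to which the spread of the Nrf2-null mice adds. In a fit to the 5 Wt groups alone, chosen after seeing the data, the D3T change of Dbp had an adjusted p of 1.14e-05. The second Dbp probe set lay between 2.65 and 2.66 in the Wt vehicle mice, below the minimum, and between 8.63 and 9.82 at 10 μmol/kg, at least 36.8-fold higher (limma adjusted p = 0.000358). In bulk liver, fewer cells of a type and less RNA per cell cannot be told apart.

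Tef, the second PAR bZIP factor, followed the same order of groups over a smaller range. Its log2 intensity was 9.05, 8.92, 8.96 and 8.96 with vehicle, 9.40, 10.42, 10.25 and 10.00 with D3T and 10.73, 11.02, 10.58 and 11.55 at 10 μmol/kg in Wt liver. It was 8.80 to 9.08 at 3 μmol/kg and 8.64 to 8.98 at 30 μmol/kg. Tef rose 4.00-fold at 10 μmol/kg (log2 change 2.00, SE 0.44, adjusted p = 0.00221), and its D3T mice lay above all vehicle mice without passing the test (log2 change 1.04, adjusted p = 0.209). Its other kept probe set, at 3.07 to 3.51 with vehicle and so under the expression minimum, was at least 9.71-fold higher at 10 μmol/kg (adjusted p = 5.82e-05).

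Hlf, the third PAR bZIP factor, differed from the other PAR bZIP genes in that the Wt vehicle mice and the mice at 10 μmol/kg overlapped. Wt vehicle mice were at 7.85, 7.55, 7.84 and 7.96, D3T mice at 7.55, 8.21, 7.92 and 7.82, and mice at 10 μmol/kg at 7.83, 8.43, 9.12 and 8.82. The change at 10 μmol/kg was 0.75 in log2 (95% interval 0.16 to 1.35, adjusted p = 0.0728), and 0.99 (adjusted p = 0.0285) without replicate 1 of that group. Replicate 1 was the lowest mouse of its group, so leaving it out raises the change and gives no support for a rise. At 30 μmol/kg the mice fell to 7.50, 7.13, 7.06 and 7.14, below every vehicle mouse. The second Hlf probe set, with 7.63 to 7.88 with vehicle and 6.76 to 7.02 at 30 μmol/kg, passed the test there (log2 change -0.90, SE 0.25, adjusted p = 0.0117), and the first did not (-0.59, adjusted p = 0.155). The call of the second was lost when quantile normalization was applied again (-0.72, adjusted p = 0.0514).

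Nr1d2, which encodes the REV-ERBβ repressor, rose with both D3T and 10 μmol/kg of CDDO-Im. Its values in Wt liver were 10.44, 10.07, 9.52 and 10.18 with vehicle, 11.57, 11.78, 12.12 and 11.89 with D3T and 13.06, 12.77, 12.61 and 13.12 at 10 μmol/kg, 3 ranges without overlap. At 3 μmol/kg the mice were at 10.07, 10.94, 10.85 and 9.70 and at 30 μmol/kg at 10.72, 10.41, 11.13 and 10.62. The rise was 3.46-fold with D3T (log2 change 1.79, SE 0.45, adjusted p = 0.0223) and 7.14-fold at 10 μmol/kg (log2 change 2.84, SE 0.45, adjusted p = 8.29e-05). Leaving out 1 mouse at a time gave the D3T change of Nr1d2 an adjusted p of 0.029 to 0.1, over the threshold without Wt vehicle replicate 2 or 3 or Wt D3T replicate 2 or 3.

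Among the Period genes, Per1 and Per3 rose at 10 μmol/kg and Per2 did not pass the test. Per1, the Period gene whose start-site sequence with 2 antioxidant response element cores is printed above, was at 5.06, 4.95, 5.44 and 5.37 with vehicle, 5.37, 5.45, 5.34 and 5.98 with D3T and 6.68, 6.79, 7.95 and 7.92 at 10 μmol/kg in Wt liver. Its rise at 10 μmol/kg was 4.38-fold (log2 change 2.13, SE 0.43, adjusted p = 0.000905), whereas its D3T mice overlapped with vehicle (log2 change 0.33, 95% interval -0.54 to 1.20). Per3, with the 2 D-boxes, was under the minimum in all vehicle mice (2.71, 2.98, 3.01 and 2.77) and reached 3.32, 5.87, 5.65 and 5.41 with D3T and 6.41, 6.28, 5.78 and 7.54 at 10 μmol/kg. At 3 and 30 μmol/kg no Wt mouse exceeded 3.11. Per3 was at least 5.67-fold higher at 10 μmol/kg than with vehicle (adjusted p = 0.00296), and its D3T difference did not pass (at least 2.09-fold, adjusted p = 0.152). Of its other 2 kept probe sets, also under the minimum with vehicle, 1 passed at 10 μmol/kg (at least 2.14-fold, adjusted p = 0.00254) and 1 did not (at least 1.24-fold, adjusted p = 0.0636). Both were kept only through the Wt mice at 10 μmol/kg, so they give no independent support for the rise of Per3. Per2 was more variable among the Wt vehicle mice, at 5.43, 6.99, 7.94 and 7.50, and the 10 μmol/kg mice at 7.16, 7.25, 7.80 and 8.46 overlapped with them (log2 change 0.70, 95% interval -0.49 to 1.89, adjusted p = 0.452). Its other kept probe set, expressed only at 10 μmol/kg in Wt liver, did not pass either (log2 change 1.65, adjusted p = 0.0553). Its D3T mice lay at 6.60, 7.97, 7.49 and 7.19.

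**Figure D1:**
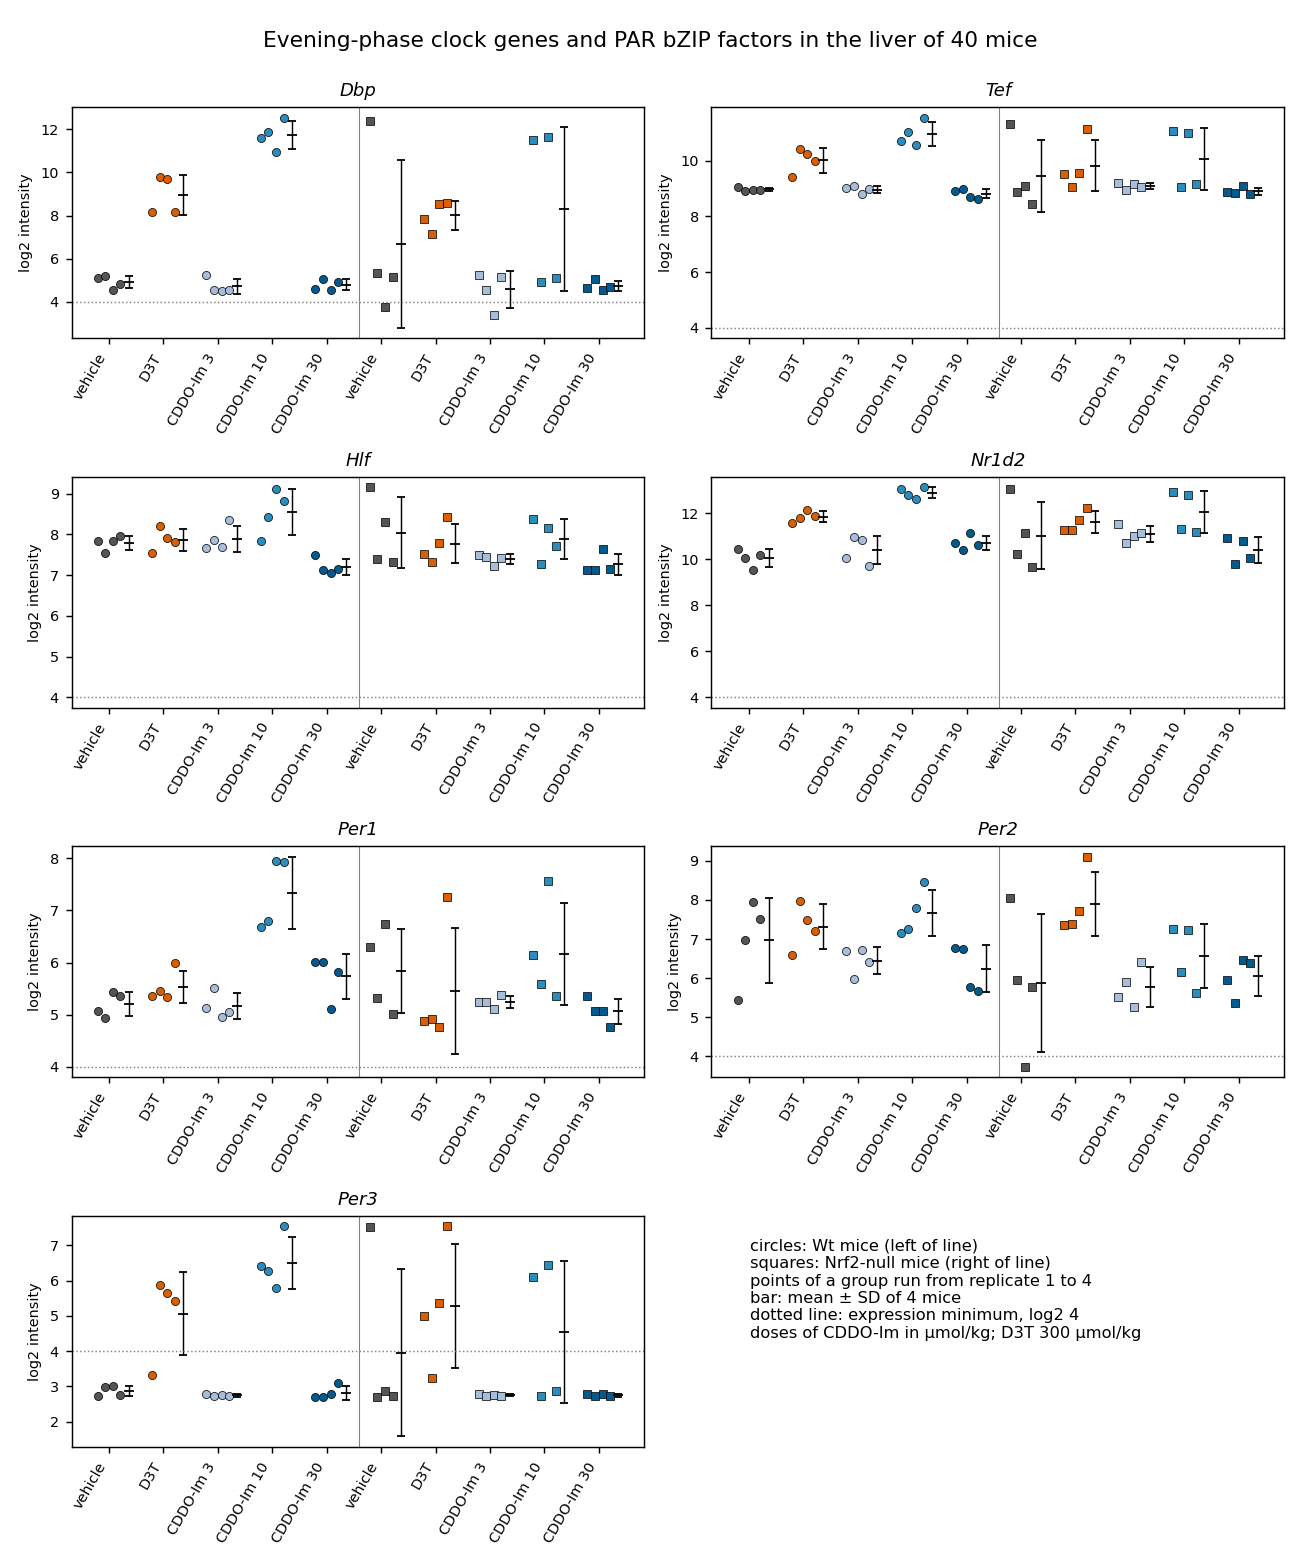
Log2 intensity (vertical axis) of the 7 genes with a kept probe set in each mouse (points, circles for Wt and squares for Nrf2-null) by treatment (horizontal axis), with the mean and SD of 4 mice beside the points. In Dbp, Wt mice given 10 μmol/kg of CDDO-Im lie between 10.94 and 12.55 and Wt D3T mice between 8.15 and 9.81, while the Nrf2-null mice at 10 μmol/kg split into a pair near 11.6 and a pair near 5.0.

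Counted over the 7 probe sets expressed in all groups, 4 were called at 10 μmol/kg of CDDO-Im in Wt liver, all higher, with a median log2 change of 2.00 against -0.04 over all 18935 probe sets. Over the 13 kept probe sets 8 were called, of which 4 were from the set expressed in only some groups. In that comparison 17% of all probe sets were called and 6.65% were called higher. With D3T 1 of the 7 was called, higher (median 0.35 against 0.00), and 3.16% of all probe sets were called, 1.92% higher. The mice of D3T and vehicle did not overlap for 4 of the 7 probe sets, of which 3 (Dbp, Tef and Nr1d2) were higher and 1, the second of Hlf, lower, against 13.1% of all probe sets, and those of 10 μmol/kg and vehicle for 4 of 7, against 22%. At 3 μmol/kg limma called 0 of 7 and 0 of 13, none had an unadjusted p under 0.05, and 1.22% of all probe sets were called. At 30 μmol/kg only the second Hlf probe set was called, lower, while 19.8% of all probe sets were called and 16.2% lower. These 4 comparisons share their vehicle mice.

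**Figure D2:**
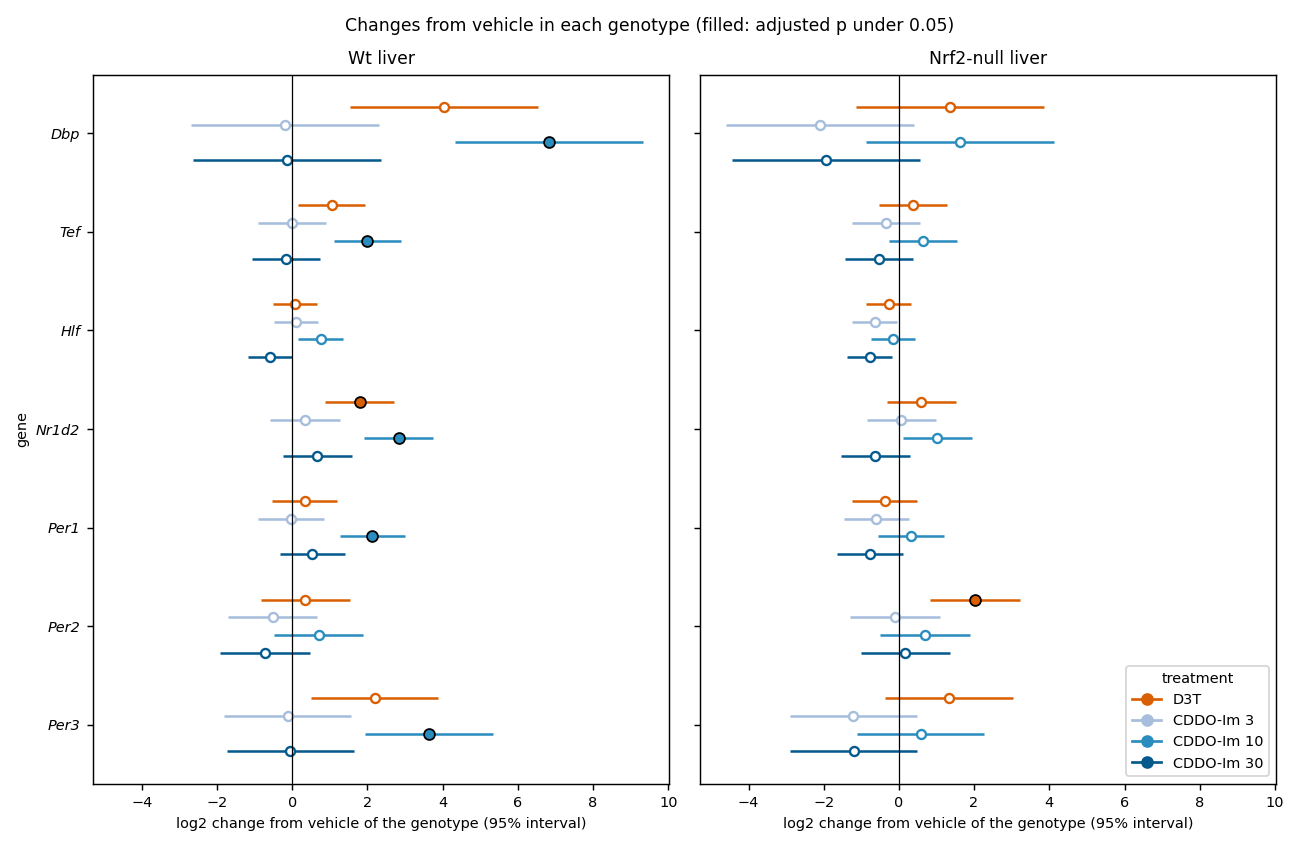
Log2 change from the vehicle mice of the same genotype (horizontal axis) for 7 genes (vertical axis), with 95% intervals of the limma fit for Wt (left) and Nrf2-null liver (right); filled points passed an adjusted p of 0.05. Dbp at 10 μmol/kg of CDDO-Im lies at 6.83 in Wt and at 1.63 in Nrf2-null liver, and the intervals at 3 and 30 μmol/kg include 0 for these genes in Wt liver. Per3 lies under the expression minimum in all Wt vehicle mice.

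The Wt doses were also compared directly. From 10 to 30 μmol/kg of CDDO-Im 5 of the 6 genes expressed in all groups fell, Dbp by 6.96 in log2 (adjusted p = 0.000262), Tef by 2.16 (adjusted p = 0.00106), Nr1d2 by 2.17 (adjusted p = 0.00122), Per1 by 1.60 (adjusted p = 0.00915) and Hlf by 1.34 (adjusted p = 0.00177). Per2 had a log2 change of -1.43 (adjusted p = 0.0891). Per3, under the minimum in all mice at 30 μmol/kg, was at least 5.67-fold higher at 10 μmol/kg (adjusted p = 0.00254). The mice of the 2 doses did not overlap for 7 of the 7 probe sets expressed in all groups, against 22.3% of all probe sets, and 6 of 7 were called, all lower, against 17.3% of all called and 12.7% lower. From 3 to 10 μmol/kg 4 of 7 were called higher, with 9.36% of all probe sets called and 3.05% higher. Dbp, Tef, Nr1d2 and Per1 were thus higher at 10 μmol/kg than at both 3 and 30 μmol/kg, whereas Hlf did not pass between 3 and 10 μmol/kg (adjusted p = 0.16) and Per2 passed neither comparison (adjusted p = 0.193 from 3 to 10 μmol/kg). The other kept probe set of Per2, under the minimum at 3 and 30 μmol/kg, passed both (at least 1.81-fold higher at 10 μmol/kg, adjusted p = 0.0221 and 0.0131). It was kept only through the Wt mice at 10 μmol/kg, so its calls give no independent support for a difference in Per2.

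Between agents, given at doses that differ, Per1 was higher at 10 μmol/kg of CDDO-Im than with 300 μmol/kg of D3T in Wt liver (log2 difference 1.80, SE 0.43, adjusted p = 0.00355) and was the 1 called probe set of 7, while 18.2% of all probe sets were called and 7.01% higher. For Dbp the mice did not overlap either, with a difference of 2.79 that did not pass the test (95% interval 0.29 to 5.29, adjusted p = 0.114). Nr1d2 differed by 1.05 (95% interval 0.13 to 1.97, adjusted p = 0.105), Tef by 0.95 (adjusted p = 0.134) and Per2 by 0.35 (95% interval -0.84 to 1.54). Over the 13 kept probe sets 3 were called, which added the second of Tef (2.45, adjusted p = 0.00487) and that of Per2, whose D3T mice were under the minimum (at least 1.81-fold, adjusted p = 0.0424). The Per2 probe set was kept only through the Wt mice at 10 μmol/kg, so its call gives no independent support. At 30 μmol/kg of CDDO-Im, Dbp (log2 difference -4.17, adjusted p = 0.0117) and Tef (-1.20, adjusted p = 0.0415) were lower than with D3T. Per3, under the minimum at 30 μmol/kg, was at least 2.09-fold higher with D3T (adjusted p = 0.0438), and 26.8% of all probe sets were called, 21.1% lower. The calls of Tef and Per3 there were each lost when any 1 of the 8 mice other than D3T replicate 1 was left out. In the fit to the 5 Wt groups alone, 6 of 13 probe sets were called for D3T against vehicle (6.52% of all), 10 for 10 μmol/kg against D3T (22.5%) and 8 for 30 μmol/kg against D3T (31.1%), so these 3 counts depend on whether the Nrf2-null mice enter the estimate of the spread.

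In Nrf2-null liver the median SD of the 7 genes was 1.47 with vehicle, 0.827 with D3T and 0.983 at 10 μmol/kg, against 0.238, 0.445 and 0.598 in Wt liver, while it was no wider at 3 μmol/kg (0.122 against 0.321) or 30 μmol/kg (0.239 against 0.257). Dbp was at 12.41, 5.35, 3.76 and 5.16 with vehicle, 7.84, 7.14, 8.54 and 8.57 with D3T and 11.53, 4.91, 11.64 and 5.11 at 10 μmol/kg. Vehicle replicate 1 and replicates 1 and 3 at 10 μmol/kg were in the range of the Wt mice at 10 μmol/kg, while the other vehicle and 10 μmol/kg mice were near the Wt vehicle mice. Nr1d2 was high in the same mice, with 13.03, 10.23, 11.15 and 9.68 with vehicle, 11.26, 11.27, 11.71 and 12.23 with D3T and 12.90, 11.32, 12.78 and 11.18 at 10 μmol/kg. Unlike Dbp, its vehicle replicate 3 and its replicates 2 and 4 at 10 μmol/kg lay above the Wt vehicle mice (9.52 to 10.44). Tef was at 11.33, 8.89, 9.09 and 8.44 with vehicle, 9.53, 9.06, 9.55 and 11.15 with D3T and 11.07, 9.07, 11.00 and 9.15 at 10 μmol/kg, and Per3 at 7.51, 2.71, 2.88 and 2.71, at 4.99, 3.25, 5.36 and 7.54, and at 6.11, 2.72, 6.43 and 2.87. In both, D3T replicate 4 was the highest of its group, as it was for Per1 (4.88, 4.92, 4.77 and 7.26) and Per2 (7.35, 7.38, 7.72 and 9.11). Per1 did not follow vehicle replicate 1 alone, since vehicle replicate 3 was higher (6.30, 5.32, 6.73 and 5.01). At 3 and 30 μmol/kg no Nrf2-null mouse exceeded 5.24 in Dbp or 2.77 in Per3.

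The SD of the vehicle mice and of the 10 μmol/kg mice exceeded the 90th percentile of all kept probe sets for 7 of 7 genes in Nrf2-null liver, against 1 of 7 in the Wt vehicle mice and 6 of 7 in the Wt mice at 10 μmol/kg. The mean of the 7 genes was 9.68 in vehicle replicate 1 and 6.55, 6.52 and 6.30 in the other vehicle mice, and 9.06, 6.72, 9.26 and 6.72 in replicates 1 to 4 at 10 μmol/kg. The labels give each mouse an animal number, and vehicle replicate 1 had the number next after those of the 4 Nrf2-null mice at 10 μmol/kg, whereas the other vehicle mice had later ones. In Wt liver the numbers of the vehicle and 3 μmol/kg mice were mixed, but the D3T, 10 μmol/kg and 30 μmol/kg mice each had consecutive numbers in a range that no other group shares, so for these 3 groups what the numbers stand for and the treatment cannot be told apart.

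Against Nrf2-null vehicle, limma called 0 of 7 genes at 3, 10 and 30 μmol/kg of CDDO-Im, with 1 of the 7 probe sets expressed in all groups at an unadjusted p under 0.05 at each dose. Of all probe sets, 1.38%, 0.444% and 0.882% were called at these doses. At 10 μmol/kg the intervals were wide, for example -0.87 to 4.13 for Dbp (log2 change 1.63). With D3T 1 of the 7 was called, against 3.8% of all probe sets (2.03% higher): Per2, at 8.04, 5.95, 3.73 and 5.77 with vehicle, rose by 2.02 in log2 (SE 0.58, adjusted p = 0.045), although its mice overlapped. This Per2 call was lost without any 1 of vehicle replicates 2, 3 and 4 and D3T replicates 3 and 4. Vehicle replicate 1 was then left out, a choice made after seeing its high values in these genes. Leaving it out raises changes from vehicle where it is high. Without vehicle replicate 1, 4 of the 13 probe sets were called with D3T, against 5.62% of all probe sets. Among them were Dbp (log2 change 3.26, adjusted p = 0.0492), Nr1d2 (1.26, adjusted p = 0.0437), Per2 (2.74, adjusted p = 0.00318) and Per3 (2.52, adjusted p = 0.0337). For Per3 the remaining vehicle mice were all under the expression minimum, so the size of its change is against values with no measured level. Its probe set was kept through 3 groups, Nrf2-null D3T among them. Without it 5 of 13 were called at 10 μmol/kg, against 5.35%, among them Dbp (3.54, adjusted p = 0.0338), Tef (1.26, adjusted p = 0.0459) and Nr1d2 (1.69, adjusted p = 0.00908). Nrf2-null and Wt vehicle mice differed in 0 of 7 genes by limma, with 2 of the 7 probe sets expressed in all groups at an unadjusted p under 0.05 and 11.1% of all probe sets called. Without vehicle replicate 1, 2 of 13 were called, with 11.7% of all, the second of Hlf at -0.92 (adjusted p = 0.016) and Per2 at -1.82 (adjusted p = 0.0256, against -1.09 and 0.243 with it). Dbp, higher by 1.76 in Nrf2-null vehicle mice (adjusted p = 0.397), then had a difference of -0.15, and Tef went from 0.47 to -0.16.

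The difference between genotypes in the response itself was tested as an interaction. At 10 μmol/kg of CDDO-Im the Wt response exceeded the Nrf2-null response by 5.20 in log2 for Dbp (95% interval 1.66 to 8.74, adjusted p = 0.0644), 1.81 for Nr1d2 (adjusted p = 0.0787), 1.81 for Per1 (adjusted p = 0.0643) and 0.01 for Per2 (95% interval -1.67 to 1.69). Without Nrf2-null vehicle replicate 1 these were 3.29 for Dbp (adjusted p = 0.146), 1.15 for Nr1d2 (adjusted p = 0.184), 1.66 for Per1 (adjusted p = 0.112) and -0.71 for Per2. Dbp passed when Nrf2-null vehicle replicate 3 or 4 or replicate 1 or 3 at 10 μmol/kg was left out, Nr1d2 without vehicle replicate 4 or replicate 1 at 10 μmol/kg, and Per1 without vehicle replicate 4 or replicate 3 at 10 μmol/kg. With all mice none of these 4 passed, and 0 of the 7 probe sets expressed in all groups did, with 5 at an unadjusted p under 0.05, while 6.66% of all probe sets were called and 3.45% in this direction. The second kept probe set of Tef, expressed in 5 groups and under the minimum in the Wt vehicle mice, had an adjusted p of 0.021 (3.17, SE 0.85), so the size of its difference is against values with no measured level. Its call was lost without Nrf2-null replicate 2 or 4 at 10 μmol/kg, without the filter (adjusted p = 0.0549) and in a fit to the 4 groups alone (adjusted p = 0.126). For D3T limma called 0 of 13, with 1 at an unadjusted p under 0.05 and 0.106% of all probe sets called. At 3 μmol/kg it called 0 of 13, with 0 at an unadjusted p under 0.05 and 2.98% of all, and at 30 μmol/kg 0 of 13, with 2 at an unadjusted p under 0.05 and 10.9% of all. For the probe sets expressed in all groups, a change that passed in Wt and not in Nrf2-null liver was thus not shown to differ between the genotypes.

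After the group means were taken out, the 7 genes varied together from mouse to mouse. Their 21 pairs had Pearson correlations of 0.352 to 0.959 with a median of 0.662 over 40 mice, the highest for Tef and Per3 and the lowest for Dbp and Per1. Against the mean of the other 6 genes, Tef reached 0.961, Per3 0.938, Dbp 0.835, Nr1d2 0.757, Hlf 0.738, Per2 0.667 and Per1 0.531. Per3 reached the expression minimum on 13 of the 40 arrays, so its correlations include many values with no measured level. Over the 20 Wt mice the same values were lower, at 0.86 for Tef, 0.74 for Per3, 0.501 for Dbp, 0.44 for Per2, 0.36 for Hlf, 0.277 for Per1 and -0.0351 for Nr1d2. Of 9688 other genes, those whose deviations were most like the mean of the 7 were Bri3 (0.882), Klhl21 (0.878), Usp2 (0.866), Gys2 (0.853), Cry2 (0.835) and Slc20a1 (0.83). Usp2 encodes a deubiquitinase of known daily rhythm, Gys2 the liver glycogen synthase and Cry2 a partner of the PER proteins. The most opposed were Arntl (-0.914), Abtb2 (-0.897), Tubb2a (-0.896), Npas2 (-0.891), Chka (-0.872) and Clpx (-0.855). In the 20 Wt mice Arntl stood at -0.703, Usp2 at 0.712 and Bri3 at 0.427. These are descriptions over mice that share the study and its 10 group means, and the deviations are widest in the Nrf2-null mice named above.

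Genes of the rest of the clock and of its targets were read from lists, and their counts at 10 μmol/kg in Wt liver stand beside 17% of all probe sets called and 6.65% called higher. All 5 morning-phase genes fell at 10 μmol/kg in Wt liver (median log2 change -3.10), including Npas2 (-4.21, adjusted p = 0.00147), Arntl (-3.88, adjusted p = 0.000123) and Nfil3 (-3.10, adjusted p = 7.49e-06). With D3T 0 of these 5 were called (median -0.95), at 3 μmol/kg 0 (0.02) and at 30 μmol/kg 0 (-0.33). The median over all probe sets at 30 μmol/kg was itself -0.13. Of all probe sets, 3.16%, 1.22% and 19.8% were called in these comparisons. The mean of the 5 genes was nevertheless 7.86 to 8.86 in the Wt D3T mice and 8.82 to 9.14 at 30 μmol/kg. Both ranges lay below the 9.34 to 9.60 of the Wt vehicle mice. In Nrf2-null liver limma called 0 of 5 under each treatment. With vehicle and at 10 μmol/kg, the mice with high evening-phase genes were the mice with low morning-phase genes. With D3T, replicate 4 had a mean of 9.18 for the 7 genes and 8.02 for the 5 morning-phase genes. Replicates 1 to 3 had 7.19 to 7.92 and 9.03 to 9.15. Their morning-phase means were thus within the range of Nrf2-null vehicle replicates 2 to 4, and their means of the 7 genes were above it. Arntl was at 6.06, 10.09, 9.26 and 10.07 in the Nrf2-null vehicle mice, 9.30, 9.46, 9.34 and 8.13 with D3T and 6.88, 9.54, 6.45 and 9.49 at 10 μmol/kg. The mean of the 5 morning-phase genes was 6.60 in vehicle replicate 1, against 9.81, 8.98 and 9.61 in the other Nrf2-null vehicle mice, and between 6.01 and 6.95 in the Wt mice at 10 μmol/kg.

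**Figure D3:**
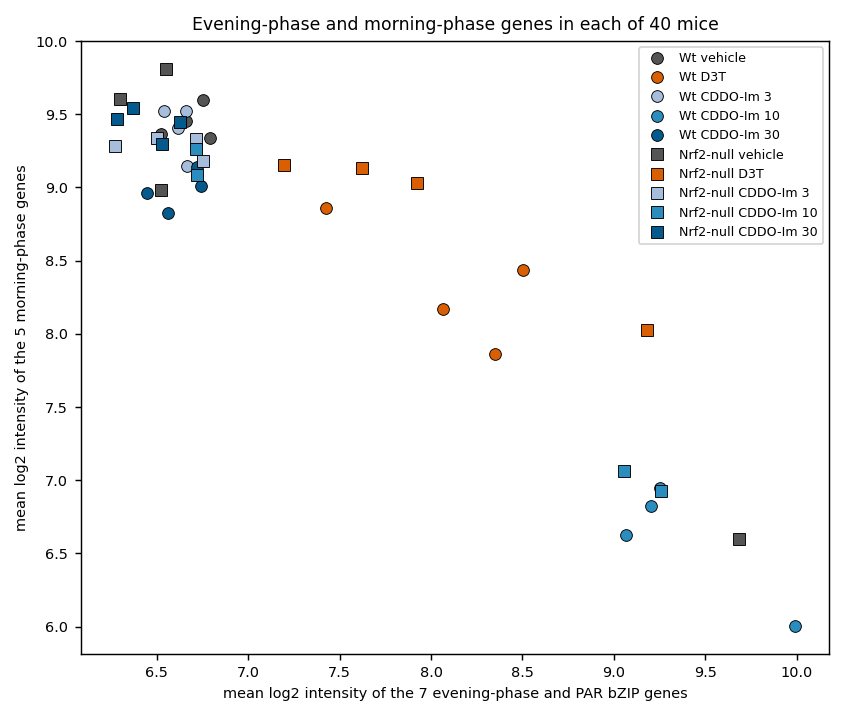
Mean log2 intensity of the 7 evening-phase and PAR bZIP genes (horizontal axis) against that of the 5 morning-phase genes (vertical axis) in each of 40 mice, coloured by treatment, with circles for Wt and squares for Nrf2-null. Wt vehicle mice lie at 6.52 to 6.79 on the horizontal axis and Wt mice at 10 μmol/kg of CDDO-Im at 9.07 to 9.99, with Wt D3T mice between them at 7.42 to 8.50, and Nrf2-null vehicle replicate 1 lies beside the Wt 10 μmol/kg mice. The means include values under the expression minimum, of Per3 in all Wt vehicle mice and of Npas2 in all Wt 10 μmol/kg mice.

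Of the other clock components, 6 of 10 were measured, and at 10 μmol/kg in Wt liver Bhlhe40, the paralogue of Bhlhe41 (1.48, adjusted p = 0.0405), and Rora, an activator at ROR elements (0.39, adjusted p = 0.0347), rose, while the kinase gene Csnk1d fell (-0.24, adjusted p = 0.0282). Among other clock outputs 4 of 8 rose, including the deubiquitinase gene Usp2 (3.68, adjusted p = 0.0043), the uridine phosphorylase gene Upp2 (1.96, adjusted p = 0.000254) and the cell-cycle kinase gene Wee1 (1.71, adjusted p = 0.00576), and 1, the vasopressin receptor gene Avpr1a, fell (-1.52, adjusted p = 7.49e-06). Of 9 known targets of the PAR bZIP factors 6 were measured, and 1 rose, the fatty acid receptor gene Ppara (1.03, adjusted p = 0.00147). Alas1, the first enzyme of heme synthesis, had a log2 change of 1.05 (adjusted p = 0.266) and Nr1i3, which encodes the receptor CAR, one of 0.71 (adjusted p = 0.177). The median of these 6 genes was 0.61, and 1 of 6 called is near the share of all probe sets. With D3T 0 of the 6 were called (median 0.26).

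Lists of genes that respond to hormones, temperature and food were read at 10 μmol/kg in Wt liver beside the clock genes, with the same 17% of all probe sets called. Of 6 glucocorticoid-responsive genes 1 rose, Fkbp5 (1.24, adjusted p = 0.0281), with a median of -0.02. Of 4 measured temperature-responsive genes the cold-inducible Cirbp rose (1.23, adjusted p = 0.0227), and the heat shock genes Hspa1a (-2.48, adjusted p = 0.0108) and Hsph1 (-1.73, adjusted p = 0.0112) fell. Of 6 measured fasting genes 1 fell, Pdk4, which restrains glucose oxidation (-2.90, adjusted p = 0.00298), although the median of the 6 was 0.58. Of 5 feeding genes 0 were called (median 0.02). With D3T in Wt liver 1 of the 6 fasting genes, Ppargc1a, rose (1.10, adjusted p = 0.038), with a list median of 0.41. In the same comparison 1 of the 5 feeding genes, the fatty acid elongase Elovl6, rose (1.84, adjusted p = 0.00291), with a list median of 1.09. Of all probe sets, 3.16% were called there and 1.92% were called higher. Hepatocyte markers had 0 of 5 called at 10 μmol/kg (median -0.02), and the summed endothelial markers were 11.55 to 11.69 in these mice against 11.91 to 12.13 in the Wt vehicle mice. Summed Kupffer cell markers were 12.48 to 13.34 against 12.65 to 13.28, and the part of other cell types in the results was not tested.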

How the data were processed

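Liver RNA of 40 mice was hybridised to Affymetrix mouse genome arrays. The authors deposited log2 intensities of 45037 probe sets per array, made with GCRMA (background adjustment by probe sequence, quantile normalization between arrays, 1 summary per probe set). The version of GCRMA is not given in the sources used here. Values near log2 2 to 3 are close to the lower end of this scale and have no order. Arrays give no count depth, and the number of mice, 4 per group, limits the precision.

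Groups and replicate numbers came from the sample labels. A probe set was kept (18935) if 3 or more mice of 1 group reached log2 4. The probe set of highest mean stood for a gene, and changes of the other kept probe sets are given where named. Genes were named from the platform annotation. The members and the gene lists were chosen with earlier results of these data known, and the morning-phase and other lists are described by counts and medians only. Named from each list were up to 3 genes, the called ones of largest change first, and the genes most like the members were the 6 of highest and 6 of lowest correlation.

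The limma package (3.58.1, with statmod 1.5.0, under R 4.3.3) was fitted once to all 10 groups, using its intensity-dependent and outlier-robust prior variance, and gave 17 comparisons, with Benjamini-Hochberg adjustment over all kept probe sets of a comparison and a threshold of 0.05. The script was tested on simulated data. Figures were drawn with Matplotlib 3.10.9 in Python 3.11.15. The labels call the mice of a group biological replicates. Alternatives were other filters, normalizations, variance models and weights, the gene-level table, fits to fewer groups, the replicate number as a block and leaving out each mouse in turn.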

Additional observations from a re-analysis of the deposited data

Results flagged for a closer look

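Single mice far from the other 3 of their group were looked for in 70 sets of 4 mice, 1 for each of the 7 genes and 10 groups, with Dixon's test at the 95% level, which flags about 1 in 20 such sets by chance. It picked 4. Per3 in Nrf2-null vehicle replicate 1 was at 7.51, with the others between 2.71 and 2.88. Per1 in Nrf2-null D3T replicate 4 was at 7.26, with the others between 4.77 and 4.92. Dbp in replicate 1 of the Wt mice given 3 μmol/kg of CDDO-Im was at 5.24, with the others between 4.52 and 4.55, all near the vehicle mice. Hlf in replicate 3 of the Nrf2-null mice given 30 μmol/kg was at 7.65, with the others between 7.12 and 7.16. The test cannot pick the Nrf2-null mice at 10 μmol/kg of CDDO-Im, of which 2 were high and 2 low.

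The response of the second kept Tef probe set to 10 μmol/kg of CDDO-Im differed between the genotypes, with a log2 difference of 3.17 by the interaction in limma (adjusted p = 0.021). The Wt vehicle mice were under the expression minimum on this probe set, and the call was lost without Nrf2-null replicate 2 or 4 at 10 μmol/kg, without the filter (adjusted p = 0.0549) and in a fit to the 4 groups alone (adjusted p = 0.126). The first had a difference of 1.36 (adjusted p = 0.19).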

How the results depend on the processing

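Values are probe sets called of 13 unless stated. For 10 μmol/kg against vehicle in Wt liver the count was 8 and 5 (of 7 genes) in the gene-level table, in which 30 μmol/kg against vehicle gave 0, 10 μmol/kg against D3T 1, against 3 μmol/kg 5, 30 against 10 μmol/kg 6 and the genotype difference at 10 μmol/kg 0. Without a filter, D3T gave 0 in Wt and 0 in Nrf2-null liver, 30 μmol/kg against D3T 2 and the genotype difference at 10 μmol/kg 0. In fits to the groups of a comparison alone, D3T gave 6 in Wt and 0 in Nrf2-null liver, 30 μmol/kg against vehicle 3, 10 μmol/kg against D3T 7, 30 μmol/kg against D3T 9 and the genotype difference at 10 μmol/kg 0. In the fit to the 5 Wt groups, chosen after seeing the data, the first was 6, and 10 and 30 μmol/kg against D3T gave 10 and 8. With array weights, D3T gave 6 in Wt and 0 in Nrf2-null liver, the genotypes with vehicle 1, 10 μmol/kg against D3T 9, 30 μmol/kg against D3T 8, and the genotype differences at 10 and 30 μmol/kg 3 and 1. With arrays centred on their medians the genotypes with vehicle gave 1 and 30 μmol/kg against D3T 2, and quantile normalization again gave 0 for 30 μmol/kg against vehicle.

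Leaving out 1 mouse at a time gave, in Wt liver, 0 to 1 for D3T, 0 to 0, 8 to 11 and 1 to 1 for 3, 10 and 30 μmol/kg, 2 to 4 and 1 to 4 for 10 and 30 μmol/kg against D3T, 8 to 10 for 10 against 3 μmol/kg and 9 to 12 for 30 against 10 μmol/kg. The 1 for 30 μmol/kg against D3T came without Wt D3T replicate 2 or 3. In Nrf2-null liver it gave 0 to 4 for D3T, 0 to 0, 0 to 5 and 0 to 0 for 3, 10 and 30 μmol/kg and 0 to 2 against Wt vehicle, each highest without Nrf2-null vehicle replicate 1. The genotype differences gave 0 to 0 for D3T and 3 μmol/kg, 0 to 6 for 10 μmol/kg (6 without Nrf2-null vehicle replicate 4, 0 without replicate 2 or 4 at 10 μmol/kg) and 0 to 1 for 30 μmol/kg (1 without vehicle replicate 1).

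Replicate numbers did not pair the mice: deviations of mice with the same number had a median correlation of 0.00847, and 10 of 40 mice were closest to their own number. The replicate block gave 0 for D3T in Nrf2-null liver and changed no other count by over 1.5 times. No change that passed the test reversed its direction. Among the other changes given, Nrf2-null against Wt vehicle was -0.15 to 2.73 for Dbp and -0.16 to 0.80 for Tef over the mice left out, below 0 only without Nrf2-null vehicle replicate 1, and the genotype difference of Per2 at 10 μmol/kg was -0.71 to 0.72, and -0.0149 with array weights. The cause of these differences was not tested. The number of mice, 4 a group, leaves wide intervals where mice of 1 group split.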
